A study of Rattus norvegicus with 8 samples.

Results

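Steroid hormone converting and conjugating enzymes of the liver were represented by 7 genes of 13458 named on the array, or 10 of 41012 probes. Members were all probes, controls aside, whose accession maps to Srd5a1, Hsd11b1, Hsd17b13, Hsd17b2, Cyp17a1, Ugt2b or Sult2a2, and Srd5a1, Hsd11b1 and Ugt2b had 2 probes each. Their transcripts were measured on 8 dual-colour Agilent arrays, with RNA from livers of male Zucker diabetic fatty rats aged 12 weeks. On 4 arrays obese rats (fa/fa, with a defective leptin receptor in every cell) were compared, and on 4 arrays lean rats (fa/+, carriers of 1 mutant allele). Each array set Cy5-labelled RNA after testosterone undecanoate (TU, an ester that releases testosterone slowly, 20 mg/kg under the skin over 4 weeks) against Cy3-labelled RNA after vehicle, so that the groups were obese TU, lean TU, obese vehicle and lean vehicle with 4 RNAs each. The labels call the arrays biological replicates, without saying if an RNA came from 1 rat or a pool.

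Testosterone reaches the liver in the blood and is inactivated there. Reductases such as Srd5a1 and oxidoreductases such as Hsd17b2 change the steroid itself, and UDP-glucuronosyltransferases and sulfotransferases then attach a sugar acid or a sulfate so that the product can be excreted. Several of these enzymes differ between male and female rat liver, where the pattern of growth hormone secretion sets the level of many steroid-metabolising genes. Glucocorticoids pass through the same organ, and Hsd11b1 regenerates the active hormone from its inert keto form there.

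RefSeq promoter sequences (GRCr8, 250 bases before to 50 after the start) were found for 4 of the 7 enzymes and are printed because these genes include those called with TU (Ugt2b and Hsd17b13), the one with negative ratios on all arrays (Srd5a1) and one of the largest differences between genotypes (Sult2a2). Capitals mark exact matches, on either strand, to AGAACA (a half-site of the androgen and glucocorticoid receptors, present in 20.7% of 33469 rat promoters of this length), TTCNNNGAA (bound by STAT factors, 8.87%), GGGCGG (the GC box, 33.1%), GTTAAT (a core of HNF1 sites, 7.45%) and TATAAA (the TATA box, 14.2%).
Ugt2b, chr14:20985199-20985498, plus strand: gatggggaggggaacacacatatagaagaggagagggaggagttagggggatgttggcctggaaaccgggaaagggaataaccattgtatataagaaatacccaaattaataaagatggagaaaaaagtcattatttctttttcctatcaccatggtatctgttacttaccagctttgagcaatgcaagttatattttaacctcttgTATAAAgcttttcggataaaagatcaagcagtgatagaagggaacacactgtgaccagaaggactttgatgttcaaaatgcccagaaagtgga
Srd5a1, chr1:35514664-35514963, plus strand: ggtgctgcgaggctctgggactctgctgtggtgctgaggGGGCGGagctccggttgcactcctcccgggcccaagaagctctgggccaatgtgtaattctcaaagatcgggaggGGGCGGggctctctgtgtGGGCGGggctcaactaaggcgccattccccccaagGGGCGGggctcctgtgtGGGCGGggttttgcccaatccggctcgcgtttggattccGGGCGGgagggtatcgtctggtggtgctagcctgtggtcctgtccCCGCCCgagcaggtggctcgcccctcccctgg
Hsd17b13, chr14:6056539-6056838, plus strand: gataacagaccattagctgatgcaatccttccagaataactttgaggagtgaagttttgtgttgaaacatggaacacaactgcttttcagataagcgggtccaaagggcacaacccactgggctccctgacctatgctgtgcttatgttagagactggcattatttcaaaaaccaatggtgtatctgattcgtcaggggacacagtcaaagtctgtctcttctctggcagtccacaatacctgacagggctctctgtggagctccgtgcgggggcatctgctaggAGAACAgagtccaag
Sult2a2, chr1:85104483-85104782, minus strand: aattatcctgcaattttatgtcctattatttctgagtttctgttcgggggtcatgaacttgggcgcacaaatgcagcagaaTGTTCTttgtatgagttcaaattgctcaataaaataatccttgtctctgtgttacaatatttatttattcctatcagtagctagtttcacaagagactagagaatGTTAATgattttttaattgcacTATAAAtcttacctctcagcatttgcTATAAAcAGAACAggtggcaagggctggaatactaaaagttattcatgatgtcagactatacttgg
The Srd5a1 window held 7 matches to GGGCGG and none to the other motifs. That of Ugt2b held TATAAA once, at -43 from the start. That of Hsd17b13 held AGAACA once, at 35. That of Sult2a2 held AGAACA at -169 and -9, GTTAAT at -64 and TATAAA at -42 and -16. No match overlapped another, and a match is a description of the letters only.

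The arrays were alike in design and differed in scatter. Each held 41012 distinct probes, of which 26964 lay well above background in TU or vehicle RNA on at least 4 of 8 arrays, and all 10 probes of the steroid enzymes were among them. Arrays carry no read depth, and their number limits the precision. The SD of the log2 ratios over all probes was 0.464 on obese replicate 2 and lay between 0.106 and 0.253 on the other 7 arrays, so enzyme calls that change without this array are given both ways. All 9 hepatocyte marker genes listed were measured, with summed intensities of 795900 to 1133000 in obese TU, 1018000 to 1224000 in lean TU, 803700 to 1131000 in obese vehicle and 746300 to 871200 in lean vehicle RNA. Of 7 markers of steroid-making cells of the adrenal and testis, 2 were measured, and their sums were 230.6 to 261.6 over all 16 RNA samples. The defining genes Star, Cyp11a1, Cyp11b1 and Cyp21a1 were on the array and did not pass the filter. In whole liver, a change in the number of cells of a type and a change in RNA per cell cannot be told apart.

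The first question was which of the enzymes responded to TU. In obese rats, Ugt2b rose and no other enzyme passed the test. In lean rats, Ugt2b and Hsd17b13 rose. Of the 10 probes, 1 was called in obese rats, where 0.0111% of 26962 tested probes were called, all of them higher, and 2 were called in lean rats, where 0.197% of 26896 were called, 0.123% as higher. At an unadjusted p under 0.05, 8 of 10 probes passed in obese rats (3428 of all probes) and 8 of 10 in lean rats (4021 of all probes). The enzymes were chosen with earlier results of these data known, so these counts are a description. Every array carried TU RNA in Cy5, so a dye bias of a probe stays in its ratio and cannot be told apart from TU. Without obese replicate 2, which leaves the lean ratios themselves untouched and lowers the spread they are tested against, 7 of 10 probes passed in lean rats (4.46% of all probes) and 0 in obese rats (0.00742%).

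**Figure D1:**
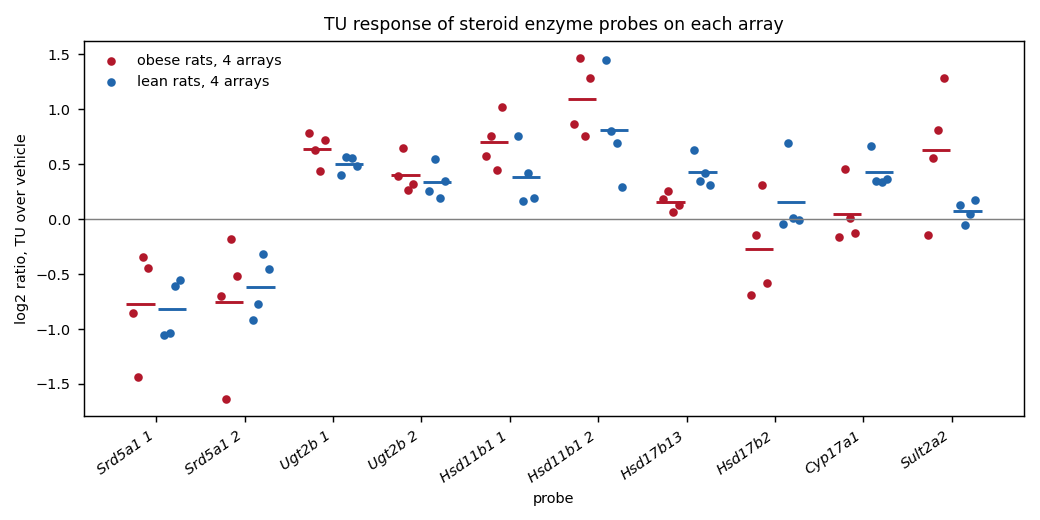
The log2 ratio of TU over vehicle (vertical axis) is shown for each of the 10 probes (horizontal axis), with 1 point per array, obese arrays left of lean arrays, and a bar at the mean of 4 arrays. All 8 points lie below 0 for both probes of Srd5a1 and above 0 for both probes of Ugt2b and of Hsd11b1.

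Srd5a1, the 5α-reductase that turns testosterone into dihydrotestosterone, had lower values with TU on every array of both genotypes, but the differences did not pass the test over all probes. The log2 ratios of probe 1 were -0.85, -1.44, -0.35 and -0.44 on the obese arrays, against -1.06, -1.03, -0.61 and -0.55 on the lean arrays. All 8 values are negative and the genotypes overlap. The mean ratio was -0.77 ± 0.17 in obese rats (SE of the limma fit, adjusted p = 0.258), and -0.81 ± 0.17 in lean rats (adjusted p = 0.101). Probe 2 gave -0.76 ± 0.20 in obese rats (adjusted p = 0.326) and -0.61 ± 0.20 in lean rats (adjusted p = 0.217). Its ratios ran between -1.64 and -0.18 on the obese arrays and between -0.92 and -0.31 on the lean arrays. Over all tested probes, 10.9% lay below 0 on all 4 obese arrays and 18.5% on all 4 lean arrays. Both probes passed in lean rats when obese replicate 2 was left out (adjusted p = 0.0126 and 0.0274, with 4.46% of all probes called). They also passed when the lean arrays were fitted alone (0.0326 and 0.0495, 1.17% of all probes). With median centring in place of loess they passed too (0.0143 and 0.0153), but 24.5% of all probes were called there. That setting moved the median of all probes to -0.21, and 4.74% of its calls were higher. Over all alternatives the adjusted p of probe 1 in lean rats ran between 0.0126 and 0.518.

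Srd5a1 also differed between the genotypes. It was higher in obese than in lean rats, under vehicle and under TU. Under vehicle, the log2 intensity of probe 1 was 12.87, 13.63, 13.08 and 13.42 in obese rats, against 11.91, 11.81, 12.05 and 12.18 in lean rats. The groups did not overlap, and the difference was 1.26 ± 0.17, or 2.40-fold (adjusted p = 0.00421). Under TU, the intensities were 12.02, 12.19, 12.73 and 12.97 in obese rats, against 10.85, 10.78, 11.44 and 11.63 in lean rats. These groups did not overlap either, and the difference was 1.31 ± 0.27, or 2.47-fold (adjusted p = 0.0132). Probe 2 gave 0.85 ± 0.18 under vehicle (adjusted p = 0.0216) and 0.71 ± 0.23 under TU, where it missed the threshold (adjusted p = 0.0686) but passed with the replicate number as a block (0.0162), with trend and robust settings (0.0457) and without obese replicate 2 (0.0165). The vehicle value of probe 2 missed it without any 1 lean array or obese replicate 4 (adjusted p up to 0.072), and with the processed signals both probes missed it under vehicle (0.0909 and 0.115). The means of probe 1 were 12.48 ± 0.45 in obese TU, 11.17 ± 0.42 in lean TU, 13.25 ± 0.34 in obese vehicle and 11.99 ± 0.16 in lean vehicle rats (SD, n = 4 each). By these means obese vehicle was the highest group, followed by obese TU, lean vehicle and lean TU, but TU and vehicle levels differ in dye, and the ratio of TU over vehicle did not pass the test in either genotype. The obese TU and the lean vehicle values overlap at the margin, with 12.02 the lowest obese TU and 12.18 the highest lean vehicle value.

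Hsd11b1, which regenerates active glucocorticoid, was lower in obese than in lean rats with both probes and in both channels, and it had higher values with TU on all 8 arrays. Under vehicle, probe 1 stood at 13.22, 12.92, 13.27 and 12.77 in obese rats, against 14.62, 14.70, 14.69 and 14.59 in lean rats. The lean values lie within a narrow band above every obese value. The difference was -1.60 ± 0.12, so that the obese level was 3.04-fold lower (adjusted p = 0.000431), and for probe 2 it was -2.19 ± 0.27, 4.57-fold lower (adjusted p = 0.00277). Under TU, probe 1 stood at 13.79, 13.69, 13.72 and 13.79 in obese rats, against 15.37, 14.87, 15.11 and 14.79 in lean rats. The groups again lie apart, with differences of -1.29 ± 0.12 for probe 1 (2.44-fold lower, adjusted p = 0.000756) and -1.91 ± 0.24 for probe 2 (3.76-fold lower, adjusted p = 0.00185). With the scanner software's processed signals probe 1 under TU lost its call (-1.16, adjusted p = 0.0898).

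The TU ratios of Hsd11b1 probe 1 were 0.57, 0.76, 0.45 and 1.02 on the obese arrays, against 0.76, 0.17, 0.42 and 0.20 on the lean arrays. They are above 0 throughout and overlap. The means were 0.70 ± 0.11 in obese rats (adjusted p = 0.216) and 0.39 ± 0.11 in lean rats (adjusted p = 0.178). Probe 2 had ratios of 0.86, 1.47, 0.76 and 1.28 on the obese arrays and 1.45, 0.80, 0.70 and 0.29 on the lean arrays. Its means were 1.09 ± 0.18 in obese rats (adjusted p = 0.212) and 0.81 ± 0.18 in lean rats (adjusted p = 0.104). Over all probes tested, 12.6% lay above 0 on all 4 obese arrays and 11.9% on all 4 lean arrays. In obese rats probe 2 passed with the processed signals (1.18, adjusted p = 0.0202, with 0.775% of all probes called). The authors' deposited log ratios gave the same value (1.18, adjusted p = 0.0209, 0.753% of all probes) and do not count as a separate result. In lean rats probe 2 passed without obese replicate 2 (adjusted p = 0.0348, 4.46% of all probes). Its adjusted p lay between 0.0202 and 0.71 over all alternatives in obese rats, and between 0.0348 and 0.809 in lean rats. The means of probe 1 were 13.75 ± 0.05 in obese TU, 15.04 ± 0.26 in lean TU, 13.05 ± 0.24 in obese vehicle and 14.65 ± 0.05 in lean vehicle rats (SD, n = 4 each). By these means lean TU was the highest group, followed by lean vehicle, obese TU and obese vehicle, with the same limit on TU against vehicle.

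Hsd17b13, a lipid droplet protein of hepatocytes that belongs to the hydroxysteroid dehydrogenases and oxidises retinol, rose with TU in lean rats. Its ratios were 0.19, 0.26, 0.06 and 0.13 on the obese arrays, against 0.63, 0.35, 0.42 and 0.31 on the lean arrays. Every lean ratio lies above every obese ratio. The mean was 0.16 ± 0.06 in obese rats (adjusted p = 0.377), and 0.43 ± 0.06 in lean rats (adjusted p = 0.0432), a 1.35-fold rise. The lean call was lost when any 1 array other than obese replicate 2 was left out (adjusted p up to 0.202) and under 5 of 10 other alternatives (up to 0.306), and median centring in place of loess turned the value to -0.07. Under vehicle, the intensities were 13.24, 13.54, 14.12 and 13.71 in obese rats, against 13.04, 12.90, 12.97 and 12.95 in lean rats. Obese vehicle rats thus had the higher level, by 0.69 ± 0.17 or 1.61-fold (adjusted p = 0.0345). The call was lost under 7 of 15 alternatives, among them those without each of the lean arrays or without obese replicate 4 (adjusted p up to 0.0968) and the processed signals (0.237). Under TU the difference was 0.42 ± 0.16 (adjusted p = 0.112), with intensities between 13.43 and 14.19 in obese and between 13.25 and 13.67 in lean rats. Without obese replicate 1, the lowest of the obese arrays, it was 0.55 and passed (adjusted p = 0.0196).

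Hsd17b2, which oxidises testosterone to androstenedione, did not pass the test in any comparison, and its obese values were widely spread. The ratios were -0.69, -0.14, 0.31 and -0.58 on the obese arrays, against -0.05, 0.69, 0.01 and -0.01 on the lean arrays. They fall on both sides of 0 in each genotype, with means of -0.27 ± 0.17 in obese rats (adjusted p = 0.481) and 0.16 ± 0.17 in lean rats (adjusted p = 0.733). Under vehicle, the intensities were 11.38, 13.68, 14.49 and 14.31 in obese rats, against 12.46, 12.21, 13.19 and 12.96 in lean rats. Obese replicate 1 lies below every lean array and the other 3 obese arrays above them. With all arrays the difference was 0.76 ± 0.67 under vehicle (adjusted p = 0.48) and 0.33 ± 0.77 under TU (adjusted p = 0.806). Without obese replicate 1 it was 1.46 under vehicle (adjusted p = 0.0175) and 1.16 under TU (adjusted p = 0.0295). Without obese replicate 3 the TU value was -0.21 (adjusted p = 0.87).

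Cyp17a1, the hydroxylase and lyase that makes androgen precursors in steroid-making glands, was higher in obese than in lean rats. Under vehicle, the log2 intensities were 10.57, 10.55, 10.80 and 11.01 in obese rats, against 7.98, 8.21, 8.33 and 7.86 in lean rats. No lean array came near the obese ones, and the difference was 2.64 ± 0.14, or 6.21-fold (adjusted p = 0.000157). Under TU they were 10.41, 11.00, 10.81 and 10.89 in obese rats, against 8.65, 8.56, 8.67 and 8.23 in lean rats. The gap was 2.25 ± 0.15 there, or 4.75-fold (adjusted p = 0.000196). Both values kept their call under every alternative run, between 2.52 and 3.39 under vehicle and between 2.12 and 2.84 under TU. The TU ratios of Cyp17a1 were -0.16, 0.46, 0.01 and -0.12 on the obese arrays, against 0.67, 0.35, 0.34 and 0.37 on the lean arrays. The lean ratios are all above 0, with a mean of 0.43 ± 0.10 that did not pass (adjusted p = 0.115), and the obese mean was 0.04 ± 0.10 (adjusted p = 0.852). The lean value passed without obese replicate 2 (adjusted p = 0.0152) and with lean arrays alone (0.0445), over a range of 0.0152 to 0.946. The markers of adrenal and testis cells, near the floor as given above, showed sums of 231.4 to 249.7 in obese TU, 237.7 to 261.6 in lean TU, 230.6 to 252.0 in obese vehicle and 235.8 to 246.9 in lean vehicle RNA, which overlap.

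Ugt2b, a glucuronosyltransferase of a family that conjugates androgens, rose with TU in both genotypes with probe 1. The log2 ratios of probe 1 were 0.78, 0.63, 0.44 and 0.73 on the obese arrays, against 0.41, 0.57, 0.56 and 0.48 on the lean arrays. All 8 ratios lie between 0.41 and 0.78, and the genotypes overlap. The mean was 0.64 ± 0.06 in obese rats, a 1.56-fold rise (adjusted p = 0.0306), and 0.50 ± 0.06 in lean rats, a 1.42-fold rise (adjusted p = 0.0279). Probe 2 had ratios of 0.39, 0.64, 0.27 and 0.32 on the obese arrays and 0.26, 0.55, 0.19 and 0.35 on the lean arrays. It did not pass, at 0.41 ± 0.08 in obese rats (adjusted p = 0.216) and 0.34 ± 0.08 in lean rats (adjusted p = 0.107), where it passed without obese replicate 2 (adjusted p = 0.0263). Leaving out 1 array ended the obese call of probe 1 in 7 of 8 cases, all but obese replicate 3 (adjusted p up to 0.201, and 0.0881 without obese replicate 2), and the lean call in 6 of 8, all but obese replicates 2 and 3 (adjusted p up to 0.2). Of 10 other alternatives, 7 ended the obese call (adjusted p up to 0.71) and 6 the lean call (up to 0.87), and with median centring the means were 1.15 (obese) and 0.05 (lean).

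The probes of Ugt2b pointed opposite ways between the genotypes. Under TU, probe 1 stood at 16.07, 16.05, 16.13 and 16.30 in obese rats, against 15.85, 15.77, 15.85 and 15.74 in lean rats, which do not overlap. The difference was 0.34 ± 0.07 or 1.26-fold (adjusted p = 0.0131), and 0.20 ± 0.10 under vehicle (adjusted p = 0.214). Probe 2 stood at 10.47, 10.75, 11.03 and 9.91 in obese TU rats, against 11.22, 11.16, 10.97 and 11.10 in lean TU rats. Its difference was -0.57 ± 0.22 under TU (adjusted p = 0.105) and -0.64 ± 0.23 under vehicle (adjusted p = 0.0999). Without obese replicate 3, whose values of probe 2 are the highest of the obese arrays, both passed (adjusted p = 0.0395 under TU and 0.0146 under vehicle). The call of probe 1 under TU was lost with processed signals (adjusted p = 0.536) and with trend and robust settings (0.0793). The Ugt2b genes are close copies of each other, and whether each probe also binds another member of the family was not tested, so the level of any 1 of them is uncertain.

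Sult2a2, a sulfotransferase of the family that conjugates hydroxysteroids and bile acids, was higher in obese than in lean rats. Under vehicle, the log2 intensities were 8.42, 9.76, 9.10 and 10.05 in obese rats, against 6.73, 6.89, 6.87 and 6.74 in lean rats. The lean values are close to the floor: in Cy3 the probe was well above background on 3 of 4 lean arrays, all but lean replicate 1. The difference was 2.53 ± 0.33, or 5.77-fold (adjusted p = 0.00346). Under TU the intensities were 8.28, 10.32, 9.92 and 11.34 in obese rats, against 6.85, 6.84, 6.91 and 6.92 in lean rats. The obese values are widely spread, lowest on replicate 1, and all lie above the lean values. The difference was 3.09 ± 0.55, or 8.48-fold (adjusted p = 0.00765). The offset of 50 added before the logarithm holds up such low values, and from the processed signals the differences were 5.50 under vehicle and 5.74 under TU.

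TU ratios of Sult2a2 were -0.14, 0.56, 0.82 and 1.29 on the obese arrays, against 0.13, -0.05, 0.04 and 0.18 on the lean arrays. The obese mean was 0.63 ± 0.18 (adjusted p = 0.344), with 3 of 4 arrays above 0, and the lean mean was 0.07 ± 0.18 (adjusted p = 0.899). Sult2a2 lies in a cluster of similar genes, and whether the probe also binds their transcripts was not tested.

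**Figure D2:**
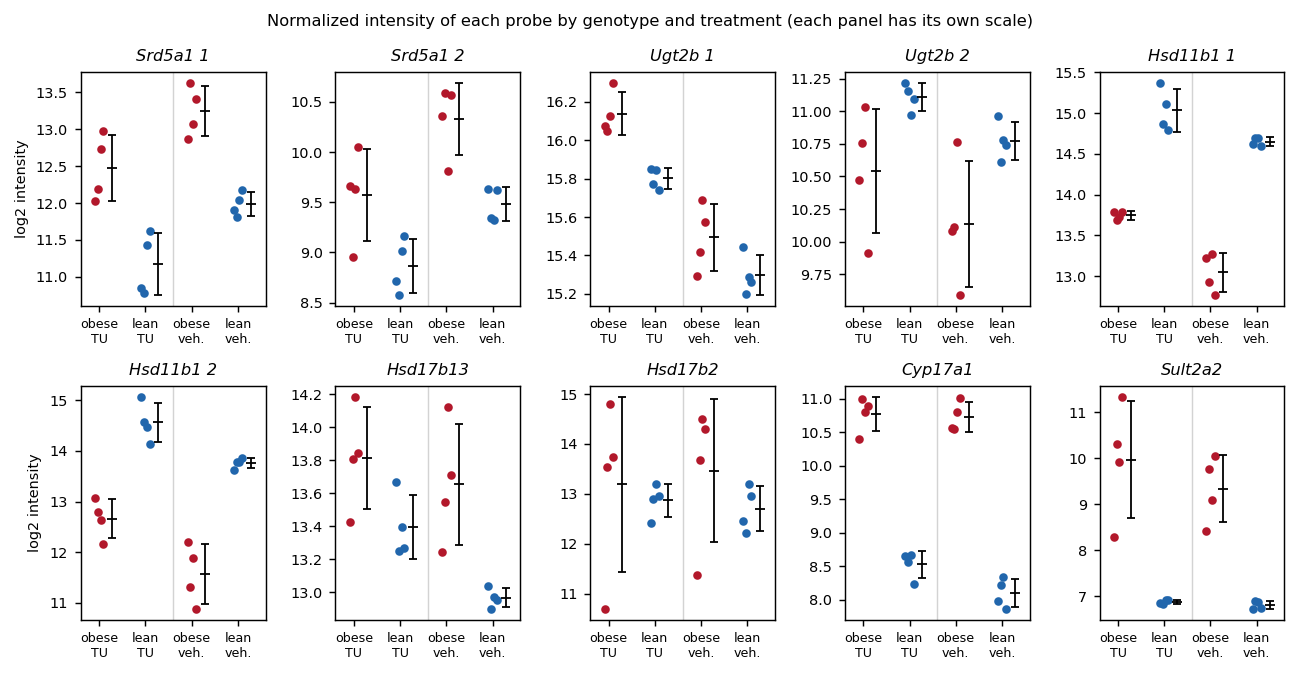
Each panel shows 1 probe, with its log2 intensity (vertical axis, own scale per panel) in obese TU, lean TU, obese vehicle and lean vehicle rats (veh., vehicle), 1 point per array and the mean ± SD of 4 arrays in black. Cyp17a1 and Sult2a2 lie higher and both probes of Hsd11b1 lie lower in obese than in lean rats in both channels, with no overlap.

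The study, by its title, concerns effects of testosterone that depend on leptin. Whether the enzymes responded to TU differently in the genotypes was tested as the difference of the ratios. A dye bias that is the same on all arrays cancels there, but one that differs between the slides does not, and with 1 genotype on each slide it cannot be told apart from genotype. None of the 10 probes passed, against 0.00372% of 26894 probes, and 2 had an unadjusted p under 0.05, where 2049 of all probes did. These were Hsd17b13, at -0.27 ± 0.09 (unadjusted p = 0.0127, adjusted p = 0.641), and Cyp17a1, at -0.39 ± 0.14 (unadjusted p = 0.0266, adjusted p = 0.646). The ratios did not overlap between the genotypes for 1 probe, that of Hsd17b13, and for 5.09% of all probes. Both values turned positive with median centring in place of loess (0.60 for Hsd17b13, 0.21 for Cyp17a1). For Srd5a1 probe 1 the difference was 0.04 ± 0.24, and for Ugt2b probe 1 it was 0.14 ± 0.09.

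Between obese and lean rats, 7 of 10 probes of 5 enzymes passed under vehicle, where 15.0% of 26894 probes were called, and 6 of 10 probes of 5 enzymes passed under TU, where 20.2% were called. Higher in obese vehicle rats (7.96% of all probes) were both probes of Srd5a1 and those of Hsd17b13, Cyp17a1 and Sult2a2, and lower (7.05% of all probes) were both probes of Hsd11b1. Under TU, where 11.7% of all probes were higher and 8.50% lower, probe 1 of Srd5a1, Cyp17a1, Sult2a2 and probe 1 of Ugt2b were higher and both probes of Hsd11b1 lower, and Hsd17b13 and probe 2 of Srd5a1 were not called. The groups did not overlap for 7 of 10 probes under vehicle, against 26.3% of all probes, and for 6 of 10 under TU, against 27.0%. The enzymes were chosen with earlier results of these data known, and Srd5a1, Hsd11b1 and Ugt2b have 2 probes each. The counts are therefore a description and not a test of the enzymes as a set. All obese arrays lay on 1 slide and all lean arrays on the other, each scanned on its own day, and in all of these values genotype and slide cannot be told apart. The channel comparisons rest on the same RNAs and arrays as the TU ratios, and the values of one are not independent of the other.

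**Figure D3:**
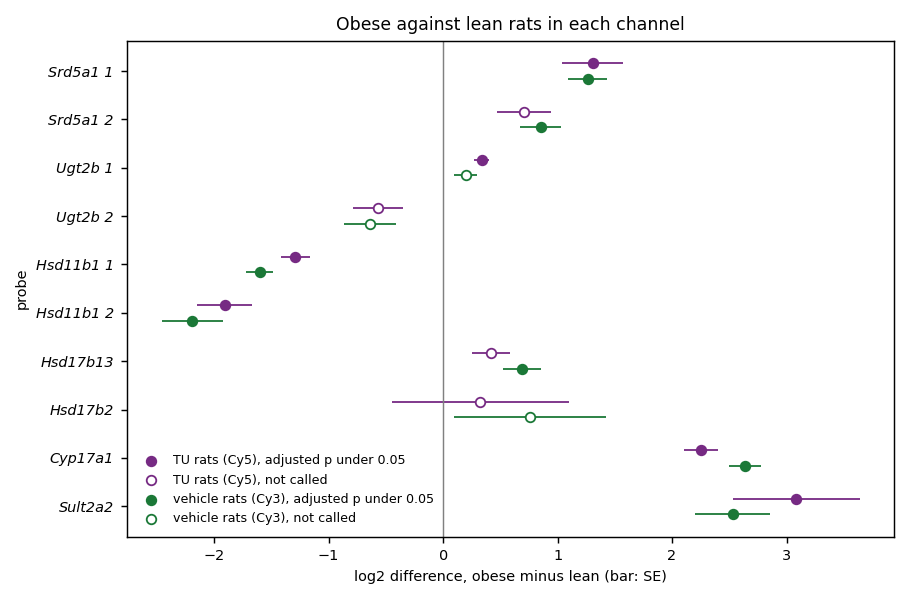
The log2 difference of obese minus lean rats (horizontal axis, bar: SE of the limma fit) is shown for each probe, for TU rats above and vehicle rats below. Filled points passed an adjusted p of 0.05, and the largest differences are those of Sult2a2 and Cyp17a1 on the higher and Hsd11b1 on the lower side.

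Other cell types' markers moved in part of these comparisons. With TU in lean rats the erythroid sum was 71640 to 105200, against 23600 to 44080 under vehicle, and the hemoglobin gene Hbb-b1 rose (1.39, adjusted p = 0.0432). The hepatocyte sums of lean TU and lean vehicle rats, given above, did not overlap either, and the plasma protein gene Ambp rose (0.76, adjusted p = 0.0347), 1 of 9 hepatocyte markers called. TU and vehicle sums differ in dye, and the hepatocyte sums of obese TU and obese vehicle rats, also given above, overlapped. In lean rats the erythroid and hepatocyte sums were thus higher with TU, as were Ugt2b and Hsd17b13. Whether these values vary together across arrays, and the part of these cells in the enzyme ratios, was not tested. Between obese and lean rats under TU, Kupffer cell sums were 19800 to 23080 in obese and 27010 to 29850 in lean rats, and stellate cell sums were 8045 to 15980 in obese and 6122 to 6693 in lean rats. Of 6 stellate markers 3 were higher and 1 lower in obese TU rats, of 6 endothelial markers listed, 4 were measured and 2 lower, and of 8 Kupffer cell markers 1 was lower. The adipocyte gene Cfd, the only 1 of 4 adipocyte markers measured, was lower in obese rats under TU (-0.97, adjusted p = 9.14e-05) and under vehicle (-0.84, adjusted p = 0.00251). Adipoq and Lep were on the array and did not pass the filter, and Plin1 was not named on it. The erythroid sum of vehicle rats was 53790 to 100800 in obese and 23600 to 44080 in lean rats. Hepatocyte markers were called on both sides, 3 of 9 higher under vehicle (Alb, Apoa1 and Cps1), and 2 higher and 1 lower under TU. Over all probes, 15.0% were called between the genotypes under vehicle and 20.2% under TU. Lymphocyte and cholangiocyte markers gave no call in any comparison, and the part of any cell type in the enzyme differences was not tested.

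The rest of steroid metabolism was described with 4 lists of 83 genes, of which 61 were measured. The lists, too, were chosen with earlier results of these data known, so their counts are a description. With TU, 0 of 61 were called in obese rats, in lean rats, or in the difference by limma with Benjamini-Hochberg adjustment. In these comparisons 23, 15 and 5 of them had an unadjusted p under 0.05. Over all probes, 3428 of 26962, 4021 of 26896 and 2049 of 26894 did. In obese rats, the gene farthest from 0 in each list was Serpina6, the corticosteroid-binding globulin of plasma, at -0.90 ± 0.13 (adjusted p = 0.182), Sult2a6 at 0.81 ± 0.22 (adjusted p = 0.326), Cyp3a18 at 0.67 ± 0.23 (adjusted p = 0.365) or Akr1d1, the 5β-reductase, at 0.45 ± 0.16 (adjusted p = 0.374). In lean rats it was Akr1c1 at -0.65 ± 0.23 (adjusted p = 0.236), Ugt2a3 at 0.55 ± 0.12 (adjusted p = 0.107), Serpina6 at -0.49 ± 0.13 (adjusted p = 0.155) or Cyp3a18 at 0.47 ± 0.23 (adjusted p = 0.389). Serpina6 ratios were -0.92, -1.48, -0.69 and -0.52 on the obese arrays and -0.55, -0.35, -0.41 and -0.66 on the lean arrays, all below 0. The median ratio of the hydroxylases was 0.23 in obese rats (all probes -0.01) and 0.18 in lean rats (all probes -0.02), and those of the other 3 lists lay between -0.03 and 0.07.

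Between obese and lean rats, 15 of 61 genes passed under vehicle (15.0% of all probes), 5 higher and 10 lower, and 14 of 61 under TU (20.2%), 5 higher and 9 lower. The testosterone hydroxylases held the largest differences. Cyp3a2, which hydroxylates testosterone in male rat liver, was 30.4-fold lower in obese rats under vehicle (log2 difference -4.93 ± 0.67, adjusted p = 0.00658), with 10.41, 10.60 and 7.74 in obese rats and 14.38, 14.50, 14.54 and 14.60 in lean rats. Its spot on obese replicate 4 was not uniform, so 3 obese arrays entered. Under TU it was 26.5-fold lower (adjusted p = 0.00764). Cyp3a18 was also lower, 5.70-fold under vehicle (adjusted p = 0.00804) and 4.94-fold under TU (adjusted p = 0.00153). Cyp2c12, which is known as the female form in rat liver, was higher, with 9.38, 8.99, 9.38 and 9.75 in obese vehicle rats against 7.57, 7.51, 7.82 and 7.61 in lean vehicle rats. This was 3.36-fold (adjusted p = 0.000895), and 3.29-fold under TU (adjusted p = 0.00012). Cyp2c11, known as the male form, was lower in obese rats under TU (-0.97 ± 0.09, adjusted p = 0.000699). It did not pass under vehicle (-0.52 ± 0.17, adjusted p = 0.0838), and its TU call was lost under 1 of 15 alternatives (adjusted p up to 0.352). Cyp3a9 was lower under vehicle (-1.42 ± 0.30, adjusted p = 0.0205) and TU (-1.13 ± 0.31, adjusted p = 0.0354). The Cyp3a9 calls were lost under 4 of 15 alternatives for vehicle (adjusted p up to 0.0624) and 7 for TU (up to 0.134).

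Of 9 hydroxylases, 1 was higher and 3 lower in obese vehicle rats (15.0% of all probes called). Under TU, 1 was higher and 4 lower (20.2% of all probes called). The medians of the hydroxylases were -0.52 under vehicle and -0.69 under TU, against 0.02 for all probes in each.

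Among the 20 measured genes of conjugation, the sulfotransferases went both ways. Sult2a6, a relative of Sult2a2, was higher in obese rats, by 1.38 ± 0.25 under vehicle (adjusted p = 0.0131) and 1.92 ± 0.14 under TU (3.78-fold, adjusted p = 0.000255). Its intensities under TU were 14.71, 14.43, 14.94 and 14.54 in obese rats, against 12.99, 12.73, 12.74 and 12.48 in lean rats. Sult2a1 was higher under TU (0.99 ± 0.20, adjusted p = 0.0131). Sult1c3 was 3.68-fold lower in obese rats under vehicle (adjusted p = 0.00298) and 4.08-fold lower under TU (adjusted p = 0.000475), and Sult1c2 was 2.78-fold (adjusted p = 0.0198) and 1.91-fold lower (adjusted p = 0.0346). The glucuronosyltransferase Ugt2b1 was 2.49-fold lower under vehicle (adjusted p = 0.0154) and 2.10-fold lower under TU (adjusted p = 0.00213). Ugt2a3 was lower and Papss2, which makes the sulfate donor, higher under TU (-0.63 and 0.51). The call of Papss2 was lost under 11 of 15 alternatives (adjusted p up to 0.119), and that of Sult1c2 in 7 under TU (up to 0.237) and 4 under vehicle (up to 0.0633). That of Ugt2b1 was lost in 4 under vehicle (up to 0.122) and 1 under TU (0.228). Sult2a6 under vehicle lost its call in 2 (up to 0.0564), Ugt2b7 in 4 (up to 0.0757) and Sult2a1 in 1 (0.162). The call of Ugt2a3 was lost in 1, the processed signals (-0.03, adjusted p = 0.971). Ugt2b7 was not well above background on any obese array in Cy3, and its lean vehicle level was at least 1.17-fold higher. In all, 1 gene of conjugation was higher and 4 lower under vehicle (15.0% of all probes called). Under TU, 3 were higher and 4 lower (20.2% of all probes called).

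Of 25 measured genes of steroid conversion, 2 were higher and 3 lower in obese rats under vehicle (15.0% of all probes called). Under TU, 1 was higher and 1 lower (20.2% of all probes called). Srd5a2, another 5α-reductase, was lower in obese rats, by -0.65 ± 0.10 under vehicle (adjusted p = 0.00827) and -0.70 ± 0.08 under TU (adjusted p = 0.00151), opposite to Srd5a1. Its vehicle intensities were 7.85, 7.39, 7.55 and 7.77 in obese rats, against 8.35, 8.35, 8.24 and 8.21 in lean rats. Under vehicle Hsd17b12, which elongates fatty acids, was 2.23-fold higher (adjusted p = 0.024) and Hsd17b10, a mitochondrial dehydrogenase, was 1.54-fold higher (adjusted p = 0.0371). Hsd17b7 (-0.39) and Hsd3b1 (-0.37) were lower under vehicle, and Cyp7b1, an oxysterol hydroxylase, was higher under TU (0.53). Of 15 alternatives, 12 ended the call of Hsd3b1 (adjusted p up to 0.889), 8 that of Hsd17b10 (up to 0.376) and 7 that of Hsd17b12 (up to 0.0741). The call of Hsd17b7 was lost in 8 with its sign kept (up to 0.0851), and also with processed signals, which turned it to 0.026 (adjusted p = 0.973). That of Cyp7b1 was lost in 3 (up to 0.0633), and that of Srd5a2 under vehicle in 1 (0.0719). Among the 7 measured receptors and carriers, the estrogen receptor Esr1 was higher in obese vehicle rats (0.22, adjusted p = 0.0344), where 4 of 4 obese and 3 of 4 lean arrays measured it, a call lost under 6 of 15 alternatives (adjusted p up to 0.104). Serpina6 did not pass (0.95 ± 0.42 under vehicle, adjusted p = 0.174), nor did the other genes among the 3 farthest from 0 in their lists. These were Hsd17b6 (1.07 under TU, adjusted p = 0.0875, and 0.99 under vehicle, adjusted p = 0.0552), Akr1c1 (-1.12 under vehicle, adjusted p = 0.0964), Shbg, the sex hormone-binding globulin (-0.14 under TU, adjusted p = 0.39, and -0.26 under vehicle, adjusted p = 0.0582), and Nr3c2, the mineralocorticoid receptor (0.20 under TU, adjusted p = 0.16). Hsd17b12 was at 0.90 under TU (adjusted p = 0.0507).

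**Figure D4:**
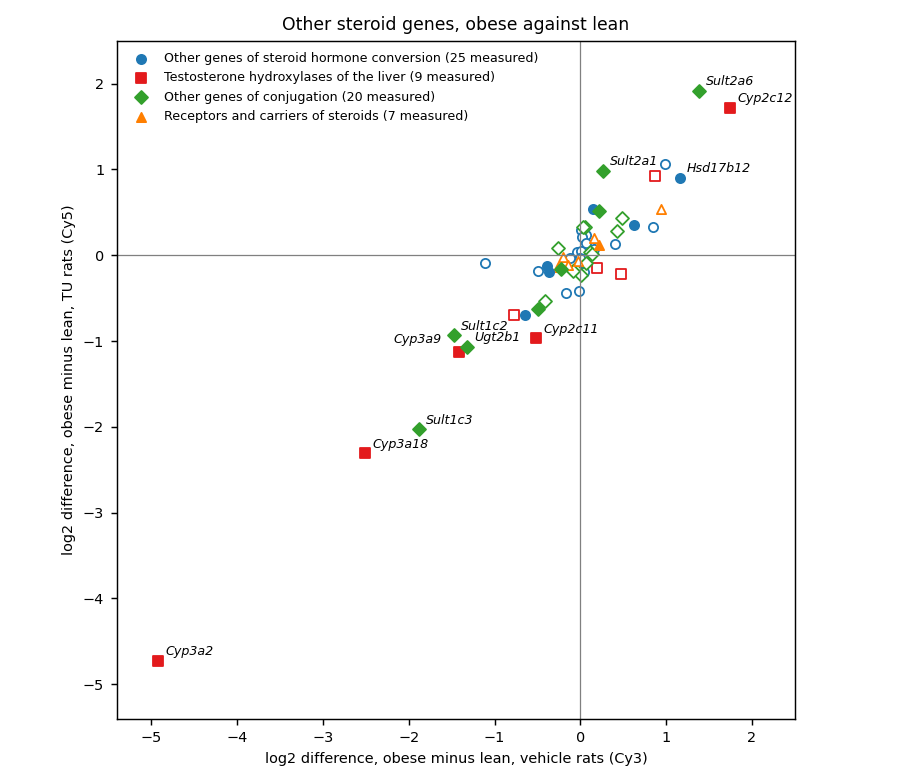
Each of the 61 measured genes of the 4 lists is placed by its log2 difference of obese minus lean rats under vehicle (horizontal axis) and under TU (vertical axis). Filled symbols passed in at least 1 of these comparisons, and Cyp3a2 lies farthest from 0, at -4.93 and -4.73.

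The genes most like each enzyme were ranked by Pearson's r over the 16 channel values (8 arrays in both channels) among 9807 named genes, as a description, since the values share arrays, slides and genotypes. Cyp17a1 was followed most closely by Herpud1 (0.975), Hadhb (0.974) and Ndufab1 (0.974), and Sult2a2 by Ubxn2a (0.970), Pdk3 (0.964) and Cd36 (0.963). Hsd17b2 was closest to Zfp24 (0.974), Hsbp1 (0.962) and Gskip (0.961), and Srd5a1 to Clcn4 (0.967), Spcs1 (0.959) and Zdhhc4 (0.956). For Hsd11b1 they were Ptgir (0.960), Or51a39 (0.944) and Ces1d (0.942), and for Hsd17b13 they were Tdo2 (0.959), Ttc9c (0.925) and Tmx1 (0.913). Ugt2b had the lowest values, with Spp2 (0.896), Plxdc2 (0.881) and Them4 (0.865).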

How the data were processed

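Liver RNA of 8 dual-colour arrays was analysed, 4 of obese and 4 of lean rats, with TU RNA in Cy5 and vehicle RNA in Cy3, per the labels' protocols. Per the labels' protocols, RNA was isolated from 100 mg of liver and 0.2 µg was labelled. The deposited spot and background intensities are median pixel values read with Agilent Feature Extraction 10.7.3.1, per the file headers. Per the file headers, the scanner software's processed intensities, also deposited, are background-subtracted, detrended and dye-normalized, and its log10 ratios set red over green. Flag columns per spot were used to leave spots out. How the authors normalized their deposited log2 ratios is not stated in the labels or headers, and comparison with the scanner's log10 ratios gave their base and direction. For Ugt2b probe 1 the deposited ratios and the processed signals gave the same means, 0.52 in obese and 0.30 in lean rats. These alternatives are therefore not independent of each other.

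Background was corrected on the median intensities by normexp with an offset of 50, followed by within-array loess, in limma 3.58.1 (R 4.3.3). Control and non-uniform spots were left out and spots of a probe averaged. Channels were compared after Aquantile normalization. Probes that lay well above background in Cy5 or Cy3 on 4 or more of the 8 arrays were tested with lmFit and eBayes, two-sided, with Benjamini-Hochberg adjustment over all probes and a threshold of 0.05. A ± beside a difference or a mean ratio is the SE of that fit, and beside a level the SD. Probes were named through RefSeq (GRCr8) accessions of the array annotation (16815 by the newer version, 195 by the older alone, 24002 unnamed). Genes on the lists were taken at their brightest passing probe. The list genes named are those past the threshold in a comparison and the 3 farthest from 0 per list, and in the TU comparisons only some of the latter are printed, with 1 gene not reported here. The 7 enzymes and all lists were chosen with earlier results of these data known. Alternatives changed the background correction, signal, normalization, filter, probe choice, variance model, arrays in the fit and replicate block. Since the labels do not say that each RNA came from its own rat, p-values measure only the spread between these samples.

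The replicate number is the position on the slide, per the file headers. Deviations of same-numbered arrays correlated by 0.617, 0.0702, 0.405 and -0.0566 in Cy3, by 0.614, 0.168, 0.445 and 0.253 in Cy5, and by 0.059, -0.104, 0.156 and -0.0134 for the ratios. Every same-numbered pair exceeded 0.1 in Cy5 alone. Differently numbered arrays were not compared in Cy3 or Cy5. For the ratios, lean replicate 2 and obese replicate 1 correlated by 0.295. These values cannot show whether the numbers pair the samples, and the labels state no pairing.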

Additional observations from a re-analysis of the deposited data

Results flagged for a closer look

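Of 60 sets of 4 arrays (a probe in a genotype, as ratio or as level of a channel), 2 held an array far from the other 3, where chance flags about 1 in 20 such sets. Hsd17b2 had a log2 ratio of TU over vehicle of 0.69 on lean replicate 2, with -0.05 to 0.01 on the other lean arrays, a gap of 0.926 of the whole range. Without that array the lean mean was -0.02. Cyp17a1 had a log2 ratio of 0.67 on lean replicate 1, with 0.34 to 0.37 on the other lean arrays, a gap of 0.909 of the range. The lean mean of Cyp17a1 lay between 0.35 and 0.46 when 1 array was left out.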

How the results depend on the processing

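The obese over lean differences of Cyp17a1, Sult2a2 and Hsd11b1 probe 2 kept their call under all alternatives run, as did Srd5a1 probe 1 under TU and Hsd11b1 probe 1 under vehicle, and no enzyme's TU response differed between genotypes by the test under any of them. TU calls were unstable. In obese rats (3 probes called) the count was 23 without background correction, 209 with processed signals, 203 with the authors' deposited log ratios, and 0 with median centring, ratios scaled between arrays, trend and robust settings, the replicate block and obese arrays alone, and 0 to 2 without 1 array. In lean rats (53 called) it was 327 without background correction, 276 with processed signals, 278 with the authors' log ratios, 314 with lean arrays alone, 23 with the replicate block, 0 with scaled ratios and with trend and robust settings, 1 to 1199 without 1 array, and 6584 with median centring, which moved the median of all probes to -0.21 (4.74% of those calls higher, against 62.3%). For the difference of the responses (1 called) it was 2 with processed signals and with the authors' ratios, 0 without background correction and with median centring, scaled ratios, trend and robust settings and the replicate block, and 0 to 3 without 1 array. Between obese and lean rats, processed signals gave 1027 under vehicle and 1851 under TU (69.8% higher, against 58.0%), the replicate block 1640 and 5163, and leaving out 1 array 1691 to 5616 under vehicle and 3392 to 8435 under TU.

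Of the 10 enzyme probes, 5 were called in lean rats with lean arrays alone (1.17% of all probes). Without 1 array it was 0 to 7 (0.00372% to 4.46%). It was 0 with scaled ratios and with trend and robust settings (0% each), the replicate block (0.0855%), processed signals and the authors' ratios (1.03% each). In obese rats, 0 enzyme probes were called with obese arrays alone, scaled ratios, median centring, the replicate block and trend and robust settings (0% of all probes each). Without 1 array it was 0 to 1 there (0% to 0.00742%). Between obese and lean rats, processed signals gave 4 under vehicle (3.82% of all probes) and 4 under TU (6.88%). The replicate block changed Srd5a1 probe 2 under TU (given above) and Hsd17b13 under vehicle (adjusted p = 0.0755), and no other enzyme between genotypes, and it ended the TU calls of Ugt2b probe 1 in obese (adjusted p = 0.163) and lean rats (0.0976) and of Hsd17b13 in lean rats (0.0952).

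Median centring turned the sign of the lean ratios of Hsd11b1 probe 1 (-0.086), Hsd17b13 (-0.074), Hsd17b2 (-0.36), Ugt2b probe 2 (-0.19), Cyp2c11 (-0.19), Cyp3a18 (-0.031), Cyp3a9 (-0.17), Hsd17b10 (-0.11) and Ugt2b37 (-0.030), and of the obese ratio of Hsd17b2 (0.066). It turned the response differences of Cyp17a1 (0.21), Hsd17b13 (0.60), Hsd17b2 (0.42), Srd5a1 probe 2 (0.49), Akr1c14 (0.35), Cyp2a1 (0.39), Cyp2a2 (0.077), Cyp2c11 (0.47), Por (0.19) and Serpina6 (0.43). Scaled ratios turned the obese ratio of Hsd17b2 (0.43) and the response differences of Hsd17b2 (0.33), Srd5a1 probe 1 (-0.46), Akr1c14 (0.57), Cyp2a1 (0.35) and Por (0.13), and processed signals turned Hsd17b7 under vehicle (0.026). The cause was not tested. Leaving out 1 array gave -0.093 to 0.11 for the obese ratio of Cyp17a1, -0.016 to 0.23 for the lean ratio of Hsd17b2 and -0.21 to 1.16 for Hsd17b2 between genotypes under TU. It gave response differences of -0.098 to 0.27 for Srd5a1 probe 1, -0.34 to 0.15 for probe 2, -0.012 to 0.14 for Ugt2b probe 2 and -0.51 to 0.0017 for Cyp2a1. Of 29 calls of list genes between genotypes, 10 kept their call under every alternative, namely those of Cyp3a2, Cyp3a18, Cyp2c12 and Sult1c3 in both channels and of Srd5a2 and Sult2a6 under TU. Signal near background limits Sult2a2 in lean rats.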
